A study of Rattus norvegicus with 28 samples.

Results

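The interaction of ketanserin and psilocybin at 3 mg/kg each was measured in adult male rats of the outbred Sprague-Dawley stock, in RNA of the prefrontal cortex. It was taken as the psilocybin effect in animals also given ketanserin minus the psilocybin effect in animals given none, on the log2 scale, for each gene. A value of 0 means that psilocybin made the same difference with and without ketanserin, and a value above 0 means that its difference was higher with ketanserin. The 16 libraries of 4 groups entered it, of 28 libraries in 7 groups in the series, with 4 biological replicates in each group. The combination group was injected with ketanserin at 3 mg/kg and then psilocybin at 3 mg/kg. The ketanserin group had ketanserin at 3 mg/kg and then saline, the psilocybin group had the Tween-80 vehicle of ketanserin and then psilocybin at 3 mg/kg, and the vehicle group had both vehicles. All injections were intraperitoneal, the rats were 8 weeks old on arrival, and tissue was taken 24 h after the injections. The comparison asks whether ketanserin given before psilocybin alters what psilocybin leaves in the transcriptome on the next day.

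Psilocybin is dephosphorylated in the body to psilocin, which activates serotonin receptors, among them the 2A receptor on pyramidal neurons of the cortex. Ketanserin blocks the 2A receptor and, with lower affinity, the 2C receptor, and it also binds adrenergic and histamine receptors. Strong activation of cortical neurons switches on immediate early genes, many of which encode transcription factors of the AP-1, Egr and Nr4a families, and their transcripts usually decay within hours.

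Total counts of the 16 libraries were 12783067 to 18538414, with a median of 15478739. Replicate 4 of the combination, the library with the fewest counts, stood apart from the others. It had no count in 19602 features, where the other 15 libraries had none in 15344 to 16657, and 4.46% of its counts fell on unnamed assembled transcripts, where the others had 2.06 to 2.54%. Its log2 CPM correlated with those of the other libraries at a median r of 0.900, and the corresponding medians of the others were 0.951 to 0.974. The main results and most named genes are therefore also given without it. Slc17a7, a marker of excitatory cortical neurons, was high in all 16 libraries, at 721 to 1014 FPKM. Ttr, which the choroid plexus expresses strongly, was at 0 to 4.05 FPKM, and the striatal receptor gene Drd1 was at 1.04 to 3.45 FPKM. These are bulk samples, in which fewer cells of a type and less RNA per cell cannot be told apart.

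No gene passed the test of the interaction. In the fit of all 28 libraries, with none of the 16 left out, edgeR called 0 of 17404 features (0%) at an adjusted p under 0.05. The lowest adjusted p was 0.993. An unadjusted p under 0.05 was reached by 557 features (3.20%), of which 303 (1.74%) lay above 0 and 254 (1.46%) below 0. Without replicate 4 of the combination 0 of 17671 features were called, and 499 (2.82%) had an unadjusted p under 0.05. Above 0 lay 52.2% of all features, and the median interaction was 0.02. The psilocybin effect with ketanserin, on its own, gave 0 calls (0%) and 594 features at an unadjusted p under 0.05 (3.41%), and that without ketanserin gave 0 calls (0%) and 522 features (3.00%). DESeq2 called 0 features in the interaction, with 794 at an unadjusted p under 0.05. The fit with voom and sample quality weights, which gives a distant library less weight, called 1. That gene was Pfkl, which encodes the liver type subunit of the glycolytic enzyme phosphofructokinase.

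The size of change that these libraries could show was limited. The median half-width of the 95% interval of an interaction was 0.62 for the 15473 features at a mean level of 0 log2 CPM or more. In counts simulated from these libraries, edgeR called 0% of genes with an interaction of 1.5-fold, 44% of those of 2-fold, 74% of those of 4-fold and 92% of those of 8-fold. It made 8 false calls among 17172 features run, and 4.75% of the unchanged ones had an unadjusted p under 0.05. DESeq2 called 6% of the simulated interactions of 1.5-fold. The simulated counts were drawn independently for each library, so none stood apart from the others as replicate 4 of the combination did. Only genes at a mean CPM of at least 1 were changed, so these shares need not hold for the real libraries or for lower counts. Each size was given to 50 genes in the same run. The adjusted p of a gene depends on how many others change, so the shares need not hold where few genes change.

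**Figure D1:**
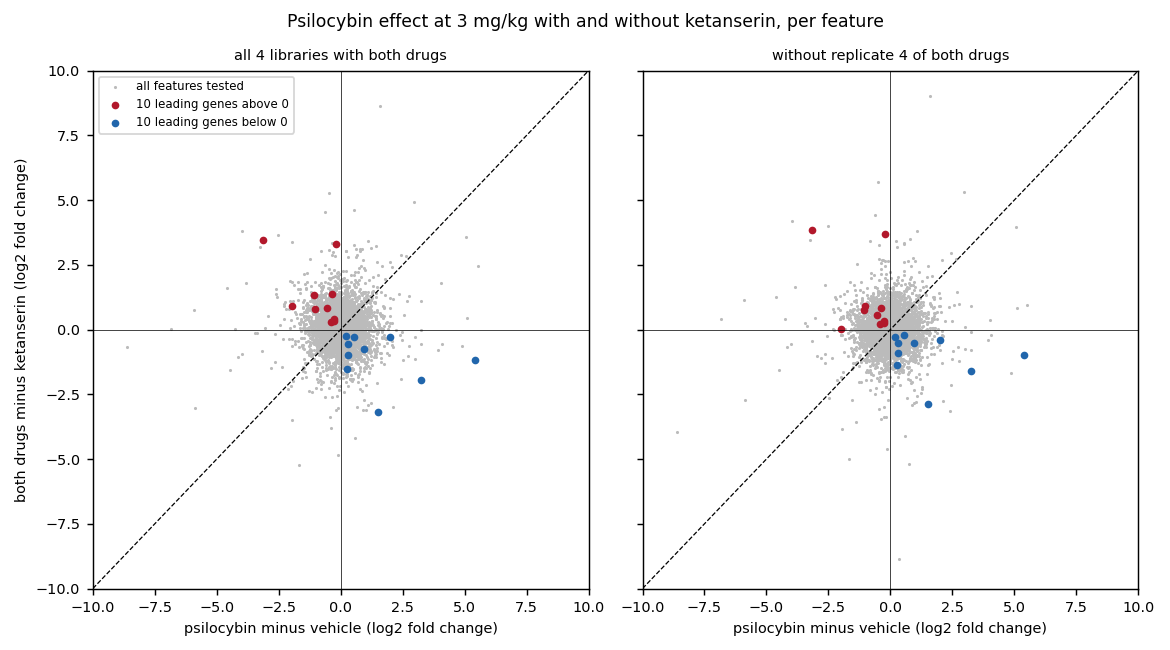
Each point is 1 of the features tested. The horizontal axis is the log2 fold change of psilocybin over vehicle and the vertical axis that of both drugs over ketanserin, with all libraries on the left and without replicate 4 of the combination on the right. Points above the dashed line of equal effects have an interaction above 0, and the 10 named genes with the lowest p in each direction are coloured.

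The features at an unadjusted p under 0.05 mostly crossed over. Of the 303 above 0, 290 were higher in the combination than with ketanserin and lower with psilocybin than with vehicle, 6 were higher in both pairs and 7 lower in both. Of the 254 below 0, 249 were lower in the combination than with ketanserin and higher with psilocybin than with vehicle, and 5 were lower in both pairs. These features were picked by the difference of the 2 effects, which favours opposite signs, so the split describes them and tests nothing. Without replicate 4 of the combination, 140 of the 303 and 151 of the 254 still had an unadjusted p under 0.05, and 0 of either had turned direction.

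The 2 psilocybin effects were also set side by side on disjoint libraries. The 216 features that were higher with psilocybin than with vehicle at an unadjusted p under 0.05 (1.24%) had a median log2 fold change of 0.69 there. In the combination against ketanserin 102 of them (47.2%) were above 0, with a median of -0.01, where 52.0% of all features were above 0. The 306 features that were lower with psilocybin (1.76%, median -0.52) were above 0 in 150 cases (49.0%), with a median of -0.0013. Across all features Pearson's r between the effects was -0.03 and Spearman's rho -0.09, over genes that are not independent replicates. Without replicate 4 of the combination the same reading gave 59.0% above 0 for the 327 features higher with psilocybin (1.85%) and 41.1% for the 414 lower ones (2.34%), with 51.2% for all features, and a rho of 0.17. Leaving out replicate 1 of psilocybin as well gave 53.2% of 222 features (1.26%) and 45.8% of 400 features (2.27%), with 52.0% for all features and a rho of 0.02. The sign of this relation thus rested on single libraries.

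C2cd4c, which encodes a C2 domain protein, had the lowest interaction p (ENSRNOG00000008026, chromosome 7, 12974169 to 12976330 on rn6). In CPM, counts scaled to a common library total, it was at 36.8, 41.0, 35.6 and 29.9 in the combination, 42.7, 54.8, 38.9 and 36.8 with ketanserin, 43.5, 49.0, 46.8 and 49.4 with psilocybin and 33.9, 29.4, 33.8 and 31.7 with vehicle. All 4 psilocybin libraries lay above all 4 vehicle libraries, while the combination and ketanserin overlapped. The interaction was -0.82 (SE 0.180, 95% interval -1.19 to -0.45, unadjusted p = 0.000107, adjusted p = 0.993), and -0.75 without replicate 4 of the combination. Over all alternatives that left out 1 library it stayed between -0.89 and -0.68.

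Gorasp2, a Golgi stacking protein gene (ENSRNOG00000055853, chromosome 3, 56966654 to 56995369), was next among the genes below 0. It was at 18.3, 26.1, 21.8 and 18.3 CPM in the combination, below all ketanserin libraries, which were at 37.0, 27.1, 33.8 and 27.8 CPM. The psilocybin libraries, at 32.4, 30.7, 27.7 and 23.8 CPM, overlapped with the vehicle libraries, at 19.2, 26.4, 18.8 and 29.0 CPM. The interaction was -0.87 (SE 0.227, unadjusted p = 0.000773) and -0.81 without replicate 4. A separate record with the symbol Gorasp2 (ENSRNOG00000023386) ran from 0.169 to 18.5 CPM over the 16 libraries and had an interaction of -2.60 (95% interval -6.96 to 1.76), so the division of reads between the records is uncertain.

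Dock8 and Mex3d were also lower in every combination library than in every ketanserin library. Dock8, a guanine nucleotide exchange factor of immune cells, averaged 2.43 ± 0.700 CPM in the combination, 4.80 ± 0.924 with ketanserin, 4.34 ± 0.862 with psilocybin and 3.52 ± 0.675 with vehicle (SD, n = 4 each). Its interaction was -1.28 (SE 0.364) and -1.22 without replicate 4. Mex3d, which encodes an RNA-binding protein, averaged 23.8 ± 2.71 CPM in the combination, 28.4 ± 0.604 with ketanserin, 28.9 ± 3.04 with psilocybin and 25.1 ± 1.80 with vehicle. Its interaction was -0.46 (SE 0.140) and -0.49 without replicate 4. In both genes the psilocybin and vehicle libraries overlapped.

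Gpc3, a glypican that binds growth factors at the cell surface, was higher in every psilocybin library than in every vehicle library. It averaged 4.64 ± 1.75 CPM in the combination, 7.79 ± 3.99 with ketanserin, 9.97 ± 3.56 with psilocybin and 5.15 ± 1.25 with vehicle, and its interaction was -1.70 (SE 0.492; -1.47 without replicate 4). RragB encodes a Rag GTPase that signals amino acid supply to mTOR. It had 6.46, 2.14, 9.16 and 7.75 CPM with psilocybin and 1.15, 2.37, 1.49 and 1.37 CPM with vehicle, so that 1 psilocybin library lay within the vehicle range. Its interaction was -2.28 (SE 0.669; -2.40 without replicate 4), and a separate RragB record had -0.73 (95% interval -1.83 to 0.37).

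The other 4 named genes below 0 were low or uneven. Grcc10 was at 75.3 CPM in psilocybin replicate 4 and at 0.0694 to 0.994 CPM in the other 3 psilocybin libraries, and its interaction of -6.61 became -1.59 without that library (-6.38 without replicate 4 of the combination). AABR07024104.5 had 1.21, 5.07, 5.08 and 0.305 CPM in the combination, 19.0, 0.871, 8.22 and 17.3 with ketanserin, 20.2, 21.7, 4.79 and 12.4 with psilocybin, and 1.42 to 1.65 with vehicle. The long noncoding RNA gene AABR07052758.1 was at 0.381 to 2.05 CPM in the combination and 6.61 to 21.1 CPM with ketanserin, at 0.555 to 26.4 with psilocybin and 2.04 to 13.1 with vehicle. The interactions of these 2 genes were -5.21 and -4.69, and -4.85 and -4.41 without replicate 4. LOC100911319 had an interaction of -1.77, which was -1.61 without replicate 4 of the combination and -1.19 without ketanserin replicate 2.

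**Figure D2:**
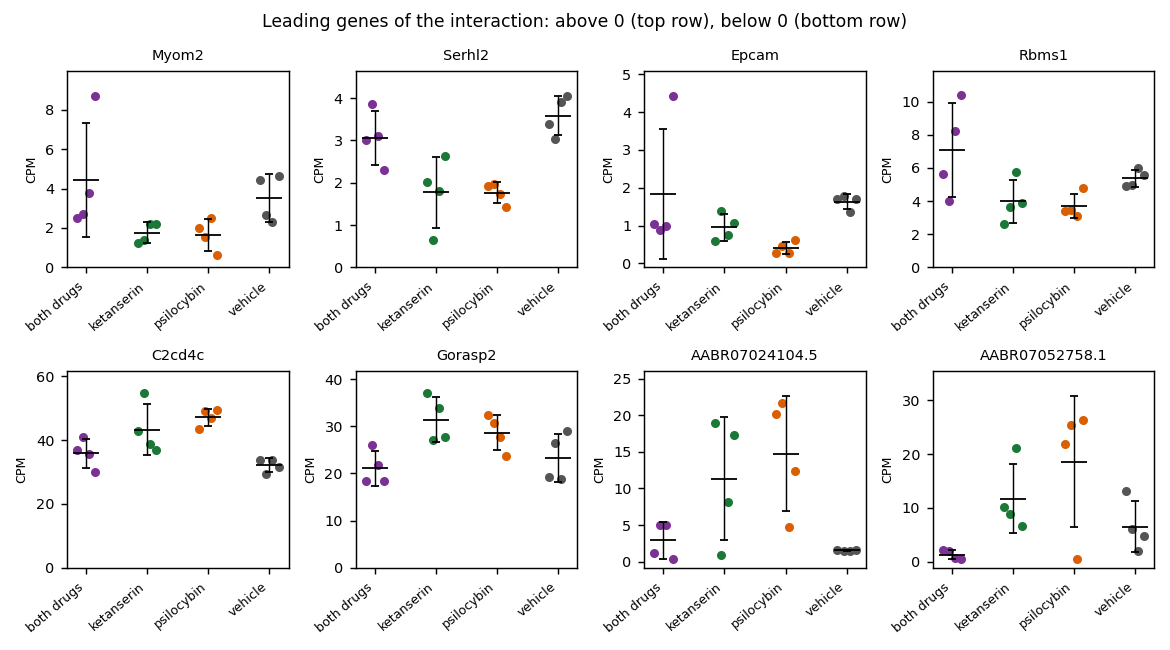
CPM in each library of the 4 groups, for the 4 named genes with the lowest interaction p above 0 (top row) and below 0 (bottom row). Points are libraries in the order of their replicate numbers, and the bar with whiskers is the mean ± SD of 4 libraries. C2cd4c separates psilocybin from vehicle, while in Epcam the high mean of the combination comes from replicate 4, at 4.42 CPM.

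Above 0, Myom2 led. It encodes a structural protein of the M band of muscle (ENSRNOG00000011754, chromosome 16, 79587640 to 79671719). It was at 2.53, 2.70, 3.78 and 8.68 CPM in the combination, above all ketanserin libraries, which were at 1.24, 1.39, 2.21 and 2.20 CPM. With psilocybin it was at 1.99, 1.52, 2.50 and 0.612 CPM and with vehicle at 4.46, 2.64, 2.29 and 4.66 CPM, which overlapped. The interaction was 2.40 (SE 0.554, unadjusted p = 0.000199) and 1.85 without replicate 4.

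Serhl2, a serine hydrolase gene, was next (ENSRNOG00000022932, chromosome 7, 123963381 to 123990103). It had 3.00, 3.85, 3.10 and 2.29 CPM in the combination and 2.02, 0.639, 1.80 and 2.64 CPM with ketanserin, where 1 combination library lay below 1 ketanserin library. The psilocybin libraries, at 1.92, 1.97, 1.73 and 1.43 CPM, all lay below the vehicle libraries, at 3.38, 3.03, 3.90 and 4.04 CPM. The interaction was 1.81 (SE 0.439) and 1.92 without replicate 4. Rrp7a overlaps it on the opposite strand, and whether strand was used in the counting is not stated, so reads of the pair cannot be told apart. The same limit holds for Dock8, Gpc3, Mex3d, Faah and AABR07024104.5, which features on the opposite strand also overlap. Grcc10, Rbms1 and P2rx1 overlap with features on their own strand.

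Rbms1, a single-stranded nucleic acid binding protein gene, averaged 7.06 ± 2.82 CPM in the combination, 3.97 ± 1.3 with ketanserin, 3.68 ± 0.733 with psilocybin and 5.36 ± 0.519 with vehicle. All psilocybin libraries were below all vehicle libraries, and the interaction was 1.37 (SE 0.388; 1.13 without replicate 4). Epcam, an epithelial adhesion molecule gene, had 1.05, 0.878, 0.992 and 4.42 CPM in the combination, 0.587, 1.39, 0.759 and 1.07 with ketanserin, 0.284, 0.451, 0.277 and 0.612 with psilocybin and 1.69, 1.78, 1.36 and 1.71 with vehicle. Its interaction of 2.91 was 2.01 without replicate 4, which held the high value. Psilocybin lay below vehicle in all libraries of this gene too.

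Proser3, Sh2b3 and Tubgcp4 were measured at higher counts. Proser3 had 13.7, 11.9, 11.8 and 12.5 CPM in the combination, all above ketanserin at 10.2, 9.06, 10.3 and 9.70, while psilocybin at 9.87, 8.85, 11.2 and 12.9 overlapped with vehicle at 13.7, 12.1, 11.8 and 13.2. Its interaction was 0.60 both with and without replicate 4. Sh2b3, an adaptor that restrains cytokine signalling, was at 27.7, 26.3, 27.3 and 38.2 CPM in the combination and at 24.0, 22.3, 23.8 and 21.2 CPM with ketanserin. Its interaction was 0.66 (SE 0.196; 0.52 without replicate 4). Tubgcp4, a component of the gamma tubulin ring complex, averaged 31.4 ± 3.78 CPM in the combination, 25.9 ± 2.83 with ketanserin, 23.6 ± 4.21 with psilocybin and 31.3 ± 6.98 with vehicle, with an interaction of 0.68 (SE 0.211; 0.62 without replicate 4). The pseudogene AABR07040938.1 had an interaction of 1.72, and of 1.22 without replicate 4, in which it was highest. LOC100912228 had an interaction of 6.62, which was 7.0 without replicate 4 and 3.20 without combination replicate 3. LOC100912228 was at 16.9 CPM in combination replicate 3 and 15.1 CPM in vehicle replicate 1, and at 0.116 to 1.12 CPM in the other 14 libraries.

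Faah, whose product degrades the endocannabinoid anandamide, set the ketanserin group apart from the other groups. The record with the lower p (ENSRNOG00000045949, chromosome 5, 134852875 to 134871775) had 23.2, 20.4, 14.5 and 0.457 CPM in the combination, 1.37, 1.68, 1.38 and 1.45 CPM with ketanserin, 20.8, 24.9, 14.6 and 16.7 CPM with psilocybin and 20.9, 17.5, 28.2 and 22.2 CPM with vehicle. Its interaction was 3.52 (SE 1.06, unadjusted p = 0.00290), and 3.91 without replicate 4. The second record (ENSRNOG00000011019) was at 13.7 CPM in that replicate, where the first was near 0. Since reads may be divided between the records, both were added. Their sum was 23.9, 20.8, 14.9 and 14.2 CPM in the combination, 1.69, 1.97, 1.86 and 1.76 with ketanserin, 21, 25.4, 20.9 and 16.9 with psilocybin and 21.5, 22.8, 28.6 and 44.1 with vehicle.

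With the records added, the ketanserin libraries thus lay below all 12 others. The combination overlapped with psilocybin, and 3 of its 4 libraries lay below every vehicle library. Low and high sums also occurred side by side within groups at 1 mg/kg. With both drugs at 1 mg/kg the sums were 29.0, 13.5, 16.8 and 2.51 CPM, and with ketanserin at 1 mg/kg 2.98, 20.6, 27.9 and 4.09 CPM.

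LOC100911575, a provisional locus (ENSRNOG00000037607, chromosome 1, 214428526 to 214430515), is named because DESeq2 called it between the combination and ketanserin (adjusted p = 0.00136), where edgeR gave an adjusted p of 0.375. It was chosen after its values were seen. It had 52.5, 87.3, 51.7 and 46.8 CPM in the combination, 3.52, 2.50, 16 and 3.21 with ketanserin, 5.61, 3.10, 5.55 and 4.15 with psilocybin and 2.10, 3.30, 2.97 and 4.11 with vehicle. The combination was above all 12 other libraries, and the interaction was 2.69 (95% interval 0.91 to 4.48, unadjusted p = 0.00470; 2.80 without replicate 4). At 1 mg/kg ketanserin alone had 51.1, 51.3, 26.6 and 43.5 CPM, so a high level also occurred without psilocybin.

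Pfkl, the gene called by voom with sample quality weights (adjusted p = 0.0326), had 140, 245, 143 and 178 CPM in the combination, 223, 210, 167 and 194 with ketanserin, 193, 213, 193 and 252 with psilocybin and 140, 207, 163 and 152 with vehicle. The groups overlapped in both pairs. Its interaction was -0.91 by voom with weights, -0.53 (95% interval -0.96 to -0.10, adjusted p = 0.993) by edgeR and -0.54 by edgeR without replicate 4. Voom with weights also called an unnamed assembled transcript (chromosome 3, 154026042 to 154036316) between the combination, at 22.9, 16.8, 21.7 and 19.0 CPM, and ketanserin, at 14.8, 10.5, 13.1 and 13.0 CPM (adjusted p = 0.00746). Its interaction was 0.70 by edgeR and 0.73 without replicate 4.

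Leaving out replicate 4 of the combination brought other genes to the front. Above 0 were Pnpla3, a lipid droplet lipase gene, at 0.91 (0.65 with the library) and AC109737.1 at 2.0 (1.59 with it). Below 0 were P2rx1, an ATP-gated ion channel gene, at -2.0 (-1.54 with it), Lrp5, a Wnt co-receptor gene, at -0.76 (-0.51 with it), and AABR07051069.1 at -2.90 (-2.49 with it). Pnpla3 was at 8.32, 6.89, 8.87 and 2.74 CPM in the combination, 4.30, 5.40, 6.35 and 6.36 with ketanserin, 6.67, 5.47, 6.66 and 5.44 with psilocybin and 7.77, 8.44, 8.42 and 7.13 with vehicle. Replicate 4 was the lowest of the 16 libraries in Pnpla3, and the other combination libraries were above all ketanserin libraries.

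None of the serotonin receptor genes was called (0 of 9). Htr2a, the 2A receptor gene, had 32.4, 25.4, 30.1 and 35.5 CPM in the combination, 45.2, 25.7, 35.2 and 30.7 with ketanserin, 37.9, 31.7, 34.9 and 32.4 with psilocybin and 30.6, 34.8, 38.6 and 31.9 with vehicle. Its interaction was -0.16 (95% interval -0.63 to 0.31) and -0.23 without replicate 4. Htr2c, the 2C receptor gene, had 20.6, 23.0, 10.4 and 11.7 CPM in the combination, 22.3, 25.0, 16.5 and 18.8 with ketanserin, 12.1, 19.8, 22.8 and 23.1 with psilocybin and 10.3, 20.3, 18.1 and 10.7 with vehicle. The groups overlapped, and the interaction was -0.72 (unadjusted p = 0.0538; -0.59 without replicate 4). Htr1a, the 1A receptor gene, was at 0.27 with and -0.09 without replicate 4.

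Per length, the receptors lay far apart. Over the 4 combination libraries Htr2a averaged 6.65 ± 0.937 FPKM, Htr1a 4.94 ± 2.53, Htr3a 4.60 ± 1.63, Htr6 4.57 ± 0.397, Htr5a 3.91 ± 1.51, Htr2c 3.71 ± 1.43, Htr1b 2.02 ± 1.09, Htr1f 0.436 ± 0.336 and Htr1d 0.392 ± 0.157. Apart from the gap above Htr1f, neighbours in this order did not differ beyond their spread. Of 9 receptor genes tested, of 14 listed, 3 were above 0 and 6 below, with a median of -0.16, and 1 above and 8 below without replicate 4. A list named other ketanserin targets held adrenergic, histamine and dopamine receptor genes and the transporter gene Slc18a2. Whether ketanserin binds the product of each member was not tested. Of its 11 genes tested, 4 were above 0 and 7 below (median -0.10), and 3 above and 8 below without replicate 4 (median -0.06). The most abundant of the list per length was Hrh3, a histamine receptor gene, at 70.8 ± 18.7 FPKM in the combination, 71.6 ± 3.81 with ketanserin, 81.3 ± 7.10 with psilocybin and 68.7 ± 12.6 with vehicle. Its interaction was -0.27 (-0.13 without replicate 4). Hrh1, another histamine receptor gene, averaged 3.18 ± 1.44, 2.52 ± 0.506, 2.39 ± 0.529 and 2.20 ± 0.958 FPKM in the same order of groups. The interaction of Hrh1 was 0.20 (-0.08 without replicate 4).

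Immediate early genes leaned below 0 as a list. Of 29 members tested, of 30 listed, 23 (79.3%) had an interaction below 0 and 6 above, where 47.8% of all features were below. The median was -0.25, and -0.22 without replicate 4, with 25 of 29 below, where 46.5% of all features were. Leaving out each of the 16 libraries in turn kept it between -0.33 and -0.15. With psilocybin alone 20 of 29 were above vehicle (median 0.19, where 47.8% of all features were above), and in the combination 21 of 29 were below ketanserin (median -0.11, where 48.0% were below). An unadjusted p under 0.05 was reached by 2 of 29 (3.20% of all features), and 0 were called. The members were measured in the same rats, so they are not independent replicates. As mean log2 CPM relative to the 16 libraries, the list was at -0.01 ± 0.230 in the combination and 0.08 ± 0.244 with ketanserin (SD). It was at 0.06 ± 0.164 with psilocybin and -0.13 ± 0.0979 with vehicle, and in both pairs the libraries overlapped. The same list had leaned this way at 1 mg/kg, with 23 of 29 members below 0 (46.3% of all features) and a median of -0.20, in a comparison that shares the vehicle libraries.

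The 2 members at an unadjusted p under 0.05 were Csrnp1 and Fosb. Csrnp1, a nuclear protein gene first found as a target of axin signalling in humans, had 5.69, 9.86, 9.24 and 7.69 CPM in the combination, 8.80, 13.1, 12.2 and 13.2 with ketanserin, 10.4, 8.06, 11.7 and 7.68 with psilocybin and 6.89, 7.19, 7.99 and 7.75 with vehicle. Its interaction was -0.88 (95% interval -1.53 to -0.24; -0.86 without replicate 4), and the groups of each pair overlapped. Fosb, a subunit of the AP-1 transcription factor, had 7.53, 9.05, 12.5 and 5.79 CPM in the combination, 9.12, 16.7, 8.08 and 5.60 with ketanserin, 10.8, 9.47, 8.46 and 8.36 with psilocybin and 7.30, 4.88, 6.13 and 5.28 with vehicle. All psilocybin libraries lay above vehicle, and the interaction was -0.83 (95% interval -1.62 to -0.05). It was -0.68 without replicate 4 of the combination and -0.44 without ketanserin replicate 2.

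Other members showed how wide the spread was. Nr4a1, an orphan nuclear receptor gene, was at 55.2, 98.7, 93.2 and 67.3 CPM in the combination, 59.0, 110, 90.1 and 82.6 with ketanserin, 86.4, 69.2, 94.3 and 73.8 with psilocybin and 51.7, 61.3, 72.9 and 63.8 with vehicle. Arc, which encodes a synaptic protein that regulates AMPA receptors, was at 33.6, 142, 133 and 111 CPM in the combination, 48.4, 156, 102 and 83.9 with ketanserin, 103, 58.7, 123 and 52.0 with psilocybin and 25.0, 46.7, 89.2 and 35.9 with vehicle. Libraries of 1 group thus differed more in Arc than the group means did. The interaction of Nr4a1 was -0.50 (95% interval -1.07 to 0.08; -0.43 without replicate 4) and that of Arc -0.68 (-1.96 to 0.61; -0.70 without it). The AP-1 subunit gene Junb was at -0.44 (-0.33 without replicate 4), Egr2 at -0.83 (-0.71), Maff at -1.63 (-1.24), Fos at -0.02 (-0.26) and Egr1 at -0.11 (-0.22). Above 0 lay Atf3 at 1.72 (95% interval -0.65 to 4.10), Fosl2 at 0.61, Nr4a2 at 0.49, Egr3 at 0.25, Klf6 at 0.08 and Klf4 at 0.06, of which Fosl2, Egr3 and Klf6 were below 0 without replicate 4, while Klf2 was above 0. Maff and Atf3, the members farthest from 0 in each direction, were low in level. Maff averaged 0.742 to 2.26 CPM over the 4 groups, and Atf3 0.194 to 0.574 CPM.

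**Figure D3:**
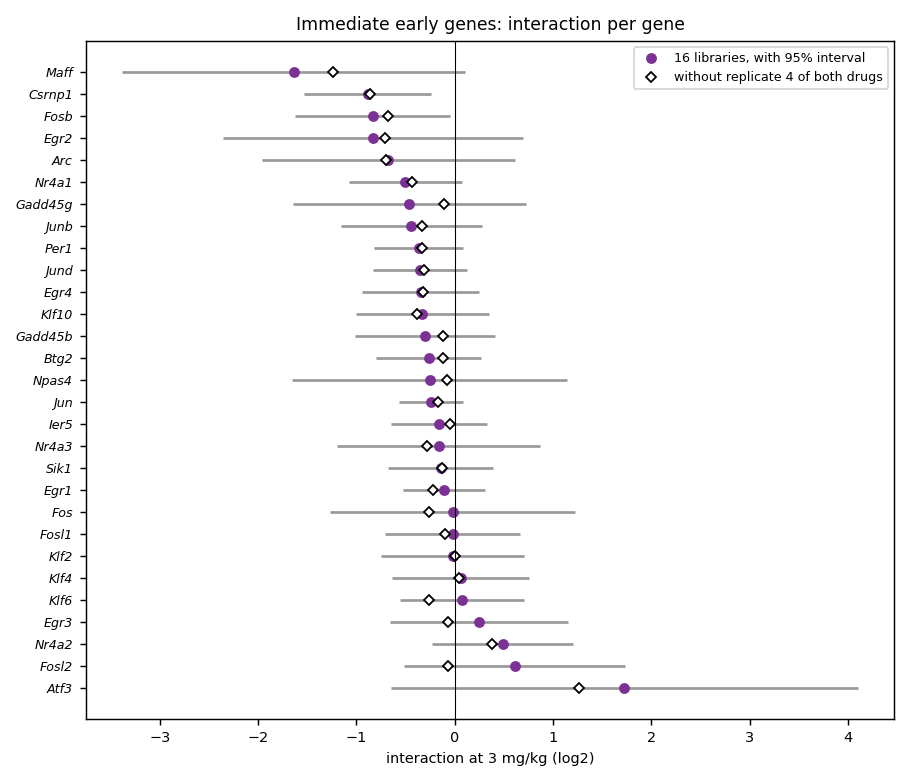
Interaction of each of the 29 immediate early genes tested, on the log2 scale. Filled points leave out none of the 16 libraries and carry the 95% interval of the fit of all 28 libraries. Open diamonds leave out replicate 4 of the combination. The intervals of Csrnp1 and Fosb end below 0, and those of the other 27 genes include 0.

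The promoters of the members with the lowest interaction p that had a sequence in the table are shown here, to give the sequence context of these genes. They are RefSeq sequences on GRCr8, a build other than that of the counts, from 250 bases before to 50 bases after the start of the gene, 5′ to 3′ along its strand. Fosb is at chr1:88089135-88089434 on the minus strand, Maff at chr7:112792537-112792836 and Nr4a1 at chr7:134259888-134260187, both on the plus strand. Capitals mark a match to the cAMP response element TGACGTCA or to the CArG box, the site of serum response factor, both searched on both strands.
Fosb: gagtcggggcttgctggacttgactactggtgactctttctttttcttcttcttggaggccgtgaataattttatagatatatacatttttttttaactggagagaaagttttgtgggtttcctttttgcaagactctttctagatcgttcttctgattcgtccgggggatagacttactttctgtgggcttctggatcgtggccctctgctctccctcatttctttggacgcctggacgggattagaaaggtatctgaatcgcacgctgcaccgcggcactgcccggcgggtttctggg
Maff: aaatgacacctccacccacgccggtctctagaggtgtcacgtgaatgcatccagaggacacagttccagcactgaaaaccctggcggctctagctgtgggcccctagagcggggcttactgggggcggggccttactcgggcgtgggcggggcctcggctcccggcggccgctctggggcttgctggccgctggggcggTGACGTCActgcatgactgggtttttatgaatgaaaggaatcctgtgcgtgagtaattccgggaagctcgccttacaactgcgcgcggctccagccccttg
Nr4a1: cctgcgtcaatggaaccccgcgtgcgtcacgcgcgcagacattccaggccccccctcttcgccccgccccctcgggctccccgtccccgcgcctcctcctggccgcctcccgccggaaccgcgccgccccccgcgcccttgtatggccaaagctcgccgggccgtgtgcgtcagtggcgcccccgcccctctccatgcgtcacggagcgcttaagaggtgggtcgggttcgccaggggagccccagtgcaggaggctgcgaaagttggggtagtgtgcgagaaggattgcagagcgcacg
Maff, the gene of a small Maf transcription factor, held 1 cAMP response element that began 51 bases before the start, and Fosb and Nr4a1 held neither motif in this window. For the 20 immediate early genes matched by symbol, the first promoter listed for each was searched. Of these 20, 3 (15%) held TGACGTCA, namely Btg2, Jund and Maff, where 612 of 33469 promoters of the same length did (1.83%). The 33469 were not reduced to 1 promoter per gene. The CArG box was found in Egr1, Egr2 and Klf6, 3 of 20 (15%), and in 548 of all promoters (1.64%). No window of the list held both motifs. The interactions of the motif-bearing genes ran from -1.63 for Maff to 0.08 for Klf6, which describes these letters and no binding.

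The list of 15 ERK feedback genes held Dusp, Spry and Spred genes and the transcription factor genes Etv1, Etv4 and Etv5. Of these 15, 5 were above 0 and 10 below (median -0.08), and 8 above and 7 below without replicate 4 (median 0.02). Spry1, a Sprouty inhibitor gene, was at 0.87 (0.74 without replicate 4) and Spry2 at -0.20 (-0.19). Of 19 late activity and neurotrophin genes 9 were above and 10 below (median -0.01), and 7 above and 12 below without replicate 4 (median -0.05). Among them Nptxr, a neuronal pentraxin receptor gene, was at -0.38 (-0.36). Glutamate receptors were above 0 in 14 of 25 (median 0.02), and in 10 of 25 without replicate 4 (median -0.10), so their direction turned with that library. The kainate receptor gene Grik2 was at -0.46 (-0.37) and the metabotropic receptor gene Grm8 at -0.50 (-0.47). Synaptic structure genes were above 0 in 18 of 31 (median 0.08), and in 14 of 31 without replicate 4 (median -0.03), with the scaffold gene Dlg4 at -0.33 (-0.31).

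Myelin and mature oligodendrocyte genes lay above 0 in 24 of 25 members tested, of 26 listed, where 52.2% of all features were above. The median was 0.28, and 0.34 without replicate 4 of the combination, with 23 of 25 above (53.5% of all features), but leaving out single libraries moved it from 0.03, without vehicle replicate 2, to 0.55, without psilocybin replicate 4. By voom with sample quality weights the median was -0.04. With psilocybin alone 25 of 25 were below vehicle (median -0.36, where 52.2% of all features were below). In the combination 17 of 25 were below ketanserin (median -0.08, where 48.0% were below). An unadjusted p under 0.05 was reached by 1 gene of 25 (3.20% of all features). That gene was Enpp2, the autotaxin gene, at 0.46 (95% interval 0.03 to 0.89, and 0.34 without replicate 4). Mbp, a main protein of compact myelin, was at 1643, 3353, 2028 and 1957 CPM in the combination, 2348, 1891, 2663 and 2918 with ketanserin, 1988, 1389, 1181 and 3111 with psilocybin and 1473, 4786, 1956 and 2955 with vehicle. The libraries of 1 group differed by over 2-fold in the combination, psilocybin and vehicle. The interaction of Mbp was 0.41 (95% interval -0.67 to 1.49, and 0.48 without replicate 4 of the combination). Mobp, which encodes a further myelin protein, had 0.61 (-0.45 to 1.66; 0.47 without it) and the gap junction gene Gjb1 0.79 (-0.32 to 1.91; 0.77 without it).

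**Figure D4:**
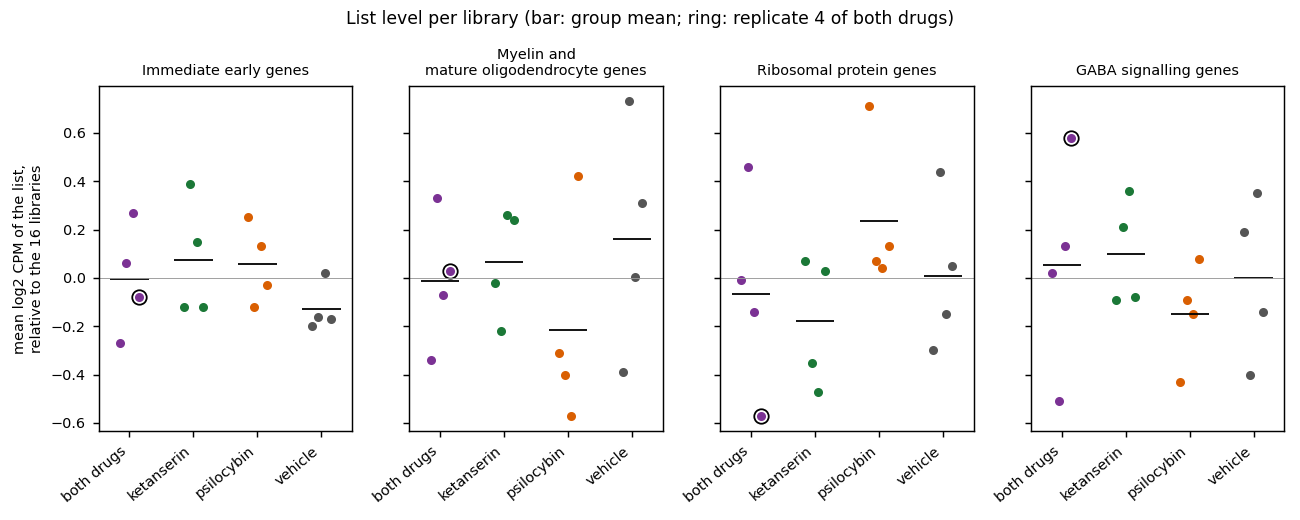
Level of 4 gene lists in each of the 16 libraries, as the mean log2 CPM of the members relative to the 16 libraries, with bars at the group means and a ring around replicate 4 of the combination. In the ribosomal list psilocybin replicate 1 is at 0.71 and combination replicate 4 at -0.57, and in the GABA list the same libraries are at -0.43 and 0.58.

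Several other lists moved with single libraries. GABA signalling genes were above 0 in 17 of 21 members with a median of 0.19, which was 0.03 with 11 of 21 above when replicate 4 of the combination was left out. Their mean level was 0.02, -0.51, 0.13 and 0.58 in the combination libraries, -0.09, 0.21, 0.36 and -0.08 with ketanserin, -0.43, -0.09, -0.15 and 0.08 with psilocybin and 0.19, -0.40, 0.35 and -0.14 with vehicle. The metabotropic receptor gene Gabbr2 was at 0.39 (0.21 without replicate 4) and Abat, which breaks down GABA, at 0.59 (0.39 without it). Perineuronal net and matrix genes were above 0 in 14 of 18 (median 0.43; 0.16 without replicate 4), with the hyaluronan synthase gene Has1 at 1.32 (1.70 without replicate 4) and the aggrecanase gene Adamts4 at 0.80 (0.65 without it). Upper layer neuron markers had a median of 0.24 with replicate 4 and -0.05 without it.

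Ribosomal protein genes were below 0 in 68 of 90 members (75.6% where 47.8% of all features were), with a median of -0.12. Without replicate 4 of the combination 44 of 90 were below (median 0.01), and without psilocybin replicate 1 the median was 0.07. Nuclear genes of mitochondrial respiration were below 0 in 66 of 82 (median -0.08), and in 19 of 82 without replicate 4 (median 0.06), so their direction turned with that library. The mean ribosomal level was -0.01, 0.46, -0.14 and -0.57 in the combination, 0.07, -0.35, -0.47 and 0.03 with ketanserin, 0.71, 0.07, 0.04 and 0.13 with psilocybin and -0.30, 0.44, -0.15 and 0.05 with vehicle. Psilocybin replicate 1 thus had the highest ribosomal level, and combination replicate 4 the lowest ribosomal and the highest GABA level. The part of these libraries' levels in the single-gene interactions was not tested.

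Microglia and innate immune genes were below 0 more often than above. Microglia markers were below 0 in 12 of 16 (median -0.18; -0.10 without replicate 4), with the complement genes C1qa and C1qb at -0.38 and -0.44 (-0.23 and -0.24 without replicate 4). The microglia median was -0.03 without psilocybin replicate 1, 0.01 without both of these libraries and -0.34 without combination replicate 2. Innate immune and interferon genes were below in 17 of 21 (median -0.18; -0.12 without replicate 4, with 14 of 21 below), and leaving out single libraries kept the median between -0.25 and -0.08. It was -0.02 without combination replicate 4 and psilocybin replicate 1. Oasl, an interferon-induced gene, was at -2.78 (-2.42 without replicate 4) on levels of at most 1.07 CPM, and Mx1 was at -0.85 (-0.74). The innate immune level was -0.85 in replicate 4 of the combination and -0.22 to 0.36 in the other 15 libraries. Astrocyte markers split 10 to 6 (median 0.08; 0.02 without replicate 4), oligodendrocyte precursor markers 4 to 7 (median -0.05; -0.12), and endothelial and mural markers 11 to 7 (median 0.09; -0.01).

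**Figure D5:**
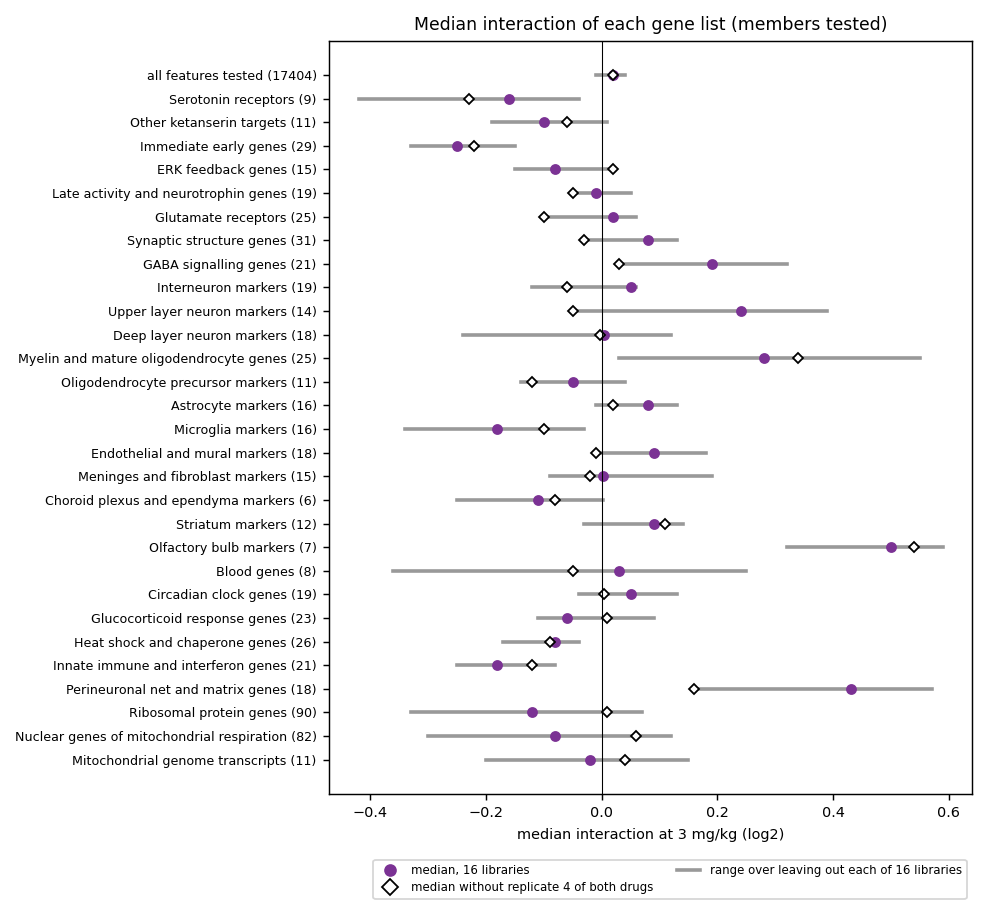
Median interaction of all features tested and of each of the 29 gene lists, with the number of members tested in brackets. Filled points use all 16 libraries, open diamonds leave out replicate 4 of the combination, and the grey bars span the medians when each of the 16 libraries is left out in turn. The bar of the immediate early list lies below 0, from -0.33 to -0.15, while that of the ribosomal list spans 0.

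The interaction at 3 mg/kg was also set against that at 1 mg/kg, with vehicle cancelling out. edgeR called 0 of 17404 features (0%), and 503 had an unadjusted p under 0.05 (2.89%). Proser3 had an interaction of 0.60 at 3 mg/kg and -0.31 at 1 mg/kg, and voom with sample quality weights called it (adjusted p = 0.0437). Mt-nd4, a mitochondrial gene of respiratory complex I, had the lowest p of the named genes above 0, with 1.13 at 3 mg/kg (1.05 without replicate 4 of the combination) and -0.98 at 1 mg/kg. It was at 718, 834, 708 and 910 CPM in the combination, all above ketanserin at 326, 642, 307 and 516, while psilocybin at 370, 649, 261 and 422 overlapped with vehicle at 480, 422, 648 and 553. The other mitochondrial genome transcripts ran from -0.26 for Mt-atp8 (-0.57 without replicate 4) to 0.24 for Mt-nd5 (-0.04) at 3 mg/kg. The median of that list, with Mt-nd4 in it, was -0.02. Tsc22d4 was at 1.38 and -2.83, and its value at 3 mg/kg was 0.29 without replicate 4 of the combination. Below 0 were Msantd3 (-0.48 and 0.25) and AABR07026032.3 (-0.46 and 0.20), at -0.48 and -0.43 for 3 mg/kg without replicate 4. Timm17b, at -3.41 (-3.08 without it) and 7.90, was near 0 CPM in most libraries.

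The psilocybin effects within ketanserin-treated animals at the 2 doses share no library. The 251 features that were higher with both drugs than with ketanserin at 1 mg/kg, at an unadjusted p under 0.05 (1.44%), were above 0 at 3 mg/kg in 147 cases (58.6%), and the 257 lower ones (1.48%) in 88 cases (34.2%), where 52.0% of all features were above. Without replicate 4 of the combination at 3 mg/kg the shares were 55.6% of 360 features (2.04%) and 39.5% of 382 features (2.16%). Across all features Spearman's rho was 0.09 with that library and -0.10 without it.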

How the data were processed

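Libraries were directional, by dUTP, from RNA selected by poly-T, per the labels' protocols. The deposited table holds raw read counts of 36387 features on rn6, per the file headers. featureCounts (1.5.0-p3), HISAT2 (2.0.5) and StringTie (1.3.3b) appear in the submitters' processing notes, without their roles. FPKM, also deposited by the authors, served only to set levels per gene length. The labels number no replicates, so numbers follow accession order and only name libraries.

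Counts of all 28 libraries were fitted with edgeR 4.0.16 in R 4.3.3, with a coefficient for each group and 21 residual degrees of freedom. filterByExpr left 17404 features, and TMM set the scaling. The robust quasi-likelihood F test was two-sided, with Benjamini-Hochberg adjustment over all features tested, and a feature was called at an adjusted p under 0.05. Alternatives were DESeq2 1.42.0, voom with sample quality weights (limma 3.58.1), other filters and scalings, and leaving out each library. The fit was tested on simulated data. CPM use TMM-scaled totals, and list levels use log2 CPM with a prior count of 2.

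Named were, among features with a gene symbol, the 10 in each direction with the lowest interaction p at a mean CPM of at least 1, and the 5 without replicate 4 of the combination. Further names were features called by any tool, 2 members of each of 29 lists by p, 3 serotonin receptors, and 3 features in each direction for the difference between doses. The comparison, the library left out and the lists were chosen with earlier results of these data known. The p-values rest on the spread between 4 rats within each of the 7 groups, so the groups at 1 mg/kg also enter it. Within groups, the chi-square per feature between libraries was 6.19 to 142, so none was a duplicate.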

Additional observations from a re-analysis of the deposited data

Results flagged for a closer look

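Of 356 groups of 4 libraries checked, 89 features in each of 4 groups, 35 had 1 library far from the other 3 by Dixon's criterion. Chance flags about 1 in 20 groups. Values are CPM, with the range of the other 3 libraries of the group.

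Replicate 4 of the combination held 8 of these values, each of them high: Epcam at 4.42 (0.878 to 1.05), AABR07040938.1 at 5.71 (1.92 to 2.30), RragB at 2.89 (2.05 to 2.16), Sh2b3 at 38.2 (26.3 to 27.7), Rora at 6.09 (0.203 to 0.948), Dlx2 at 11.6 (4.46 to 4.95), Tsc22d4 at 14.5 (2.16 to 3.29) and the mitochondrial gene Mt-nd5 at 4713 (2487 to 2543). The interaction of Rora, a nuclear receptor gene of the clock, was 2.41 with this library and 0.68 without it. Elsewhere in the combination, replicate 3 was high in Dock8 at 3.47 (1.96 to 2.16), LOC100912228 at 16.9 (0.229 to 0.540) and Slc17a6 at 11.8 (6.47 to 7.06). Replicate 2 was low in Atp5f1 at 0.540 (1.42 to 1.55) and high in Fau at 6.08 (0.806 to 1.60).

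With ketanserin, replicate 2 was high in LOC100911319 at 4.30 (1.31 to 1.76), AABR07051069.1 at 13.0 (2.71 to 3.65) and Rgs2 at 47.0 (37.0 to 38.5). Replicate 3 was high in Timm17b at 3.73 (0 to 0.130), and replicate 4 low in Slc17a6 at 5.42 (9.19 to 9.58).

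With psilocybin, replicate 1 held 5 such values: Atp5sl at 77.4 (65.5 to 67.2), Gabbr2 at 268 (370 to 385), Abat at 42.6 (88.6 to 94.8), C1qb at 54.8 (28.6 to 31.2) and Lum at 5.04 (3.20 to 3.40). Replicate 4 was high in Grcc10 at 75.3 (0.0694 to 0.994), Atp5f1 at 12.1 (0.832 to 2.63) and Enpp2 at 48.5 (39.2 to 40.3), and replicate 2 in AABR07051069.1 at 20 (2.22 to 4.49).

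With vehicle, replicate 2 held 5: Sh2b3 at 22.5 (29.0 to 30.1), Pdia3 at 244 (205 to 211), Lrp5 at 16.5 (11.3 to 12), Crym at 341 (192 to 207) and Timm17b at 8.11 (0.0619 to 0.206). LOC100912228 was at 15.1 in replicate 1 (0.434 to 1.12), Msantd3 at 16.5 in replicate 3 (14.6 to 14.7) and AABR07040938.1 at 1.51 in replicate 4 (1.92 to 1.98).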

How the results depend on the processing

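The interaction was called in 0 features in edgeR under each scaling, filter and left-out library tried, and by DESeq2. Voom with sample quality weights called 1 feature in the interaction (Pfkl), 1 between the combination and ketanserin (the unnamed transcript) and 1 in the difference between doses (Proser3). Between the combination and ketanserin DESeq2 called 1 and edgeR without ketanserin replicate 3 also 1, LOC100911575 both times. Leaving out each library gave 0 to 0 calls for the interaction, 0 to 1 for the combination against ketanserin, and 0 to 0 for psilocybin against vehicle and for the difference between doses. The count at an unadjusted p under 0.05 moved more: in the interaction from 464 (without ketanserin replicate 1) to 1352 (without combination replicate 2), and in psilocybin against vehicle from 366 to 1419 (without vehicle replicates 1 and 2 in turn). It was 353 in a fit of the 16 libraries alone 1035 with no filter on low counts and 2119 by voom with weights, against 557 as reported. Over the alternatives, 2120 values of named genes kept direction and side of the threshold and 1 passed it. The 13 that reversed were Mt-nd5 (-0.04), Slc1a2 (-0.18), Slc4a1 (-0.19) and Htr1a (-0.09) without combination replicate 4, the same 4 at -0.04, -0.37, -0.21 and -0.39 and C1qb at 0.05 without psilocybin replicate 1 as well (chosen after seeing the data), Htr1a at -0.03 without psilocybin replicate 1 alone, Htr2a at 0.02 without ketanserin replicate 1, Timm17b at 0.02 without ketanserin replicate 3, and Ttr at -0.37 by voom with weights. The cause was not tested. Of the 29 list medians, 6 kept their sign under all 24 alternatives each, among them those of the immediate early (-0.33 to -0.15), innate immune (-0.25 to -0.02) and perineuronal lists (0.11 to 0.57). The other 23 took another sign in 1 or more, among them the myelin (-0.04 by voom with weights), ribosomal (up to 0.19) and respiration medians (up to 0.26). Leaving out each library moved these genes over -0.04 to 0.33 (Mt-nd5), -0.18 to 0.92 (Slc1a2), -0.19 to 0.73 (Slc4a1), -0.09 to 0.79 (Htr1a), -0.69 to -0.15 (C1qb), -0.26 to 0.02 (Htr2a), -7.58 to 0.02 (Timm17b) and 0.66 to 2.75 (Ttr). No paired analysis was possible because the labels give no replicate numbers that groups share. The number of rats limits the intervals: of simulated 1.5-fold interactions edgeR called 0% and DESeq2 6%.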

Other observations

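A further list with few members had a large median in the interaction, and the others given here had medians near 0. Olfactory bulb markers, of which 7 were tested, had a median of 0.50 (0.54 without replicate 4 of the combination) with 4 above 0 and 3 below. Blood genes split 4 to 4 (median 0.03), although 7 of 8 were above ketanserin in the combination and 8 of 8 above vehicle with psilocybin. Circadian clock genes were above 0 in 13 of 19 (median 0.05), with Per3, a period gene of the clock, at 0.90 (SE 0.425; 0.92 without replicate 4). Heat shock and chaperone genes were below 0 in 18 of 26 (median -0.08), with the protein disulfide isomerase genes Pdia3 and Pdia6 at -0.26 and -0.23 (-0.25 and -0.23 without replicate 4). Glucocorticoid response genes were below in 15 of 23 (median -0.06; 0.01 without replicate 4), and deep layer neuron markers split 9 to 9.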
